A study of Mus musculus with 12 samples.

Results

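A gene was looked for that was silent in the parental mouse embryonic fibroblasts (MEFs) and on in every line derived from them. The rule took CPM, the count of a gene per 1000000 counts of the library without *Rn45s* (the ribosomal RNA precursor), of 0.1 or less in the 3 TM6 libraries and of 0.5 or more in all 9 libraries of the derived lines. Of 24453 genes, 4 met both limits, and the rule left out 3 of them by name (*Ostn*, *Car6* and *Cox6a2*). The 1 gene that remained was *Gm13154*, so what follows describes a single gene and its surroundings. The values that chose it are its levels in TM6 against the derived lines, and that contrast of *Gm13154* is given as a description only.

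RNA was sequenced from 4 lines of MEFs, with 3 libraries per line and 12 in all. TM6 are MEFs of C57BL/6J origin with loxP sites in both alleles of *Pnpt1* (*Pnpt1* fl/fl), the gene of polynucleotide phosphorylase (PNPase), and they were immortalized with the SV40 large T antigen, which all 4 lines therefore carry. The rho0 MEFs are TM6 cells that lost mitochondrial DNA during 3 weeks with ditercalinium at 750 ng/mL and were then expanded from a single colony. PKO-1 and PKO-6 MEFs are PNPase knockout clones, each expanded from a single colony after TM6 cells had been infected with an adenovirus expressing Cre. All lines grew with uridine at 50 µg/mL. Each derived line is thus 1 clone, and a difference between lines cannot be told apart from a difference between clones. Replicates are cultures of 1 line, and all p-values measure the spread between such cultures.

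Library totals were 47164860 to 67991378 counts, and *Rn45s* took 12.2% to 19.6% of them. Read counts of *Pnpt1* averaged 64.5 ± 4.54 CPM in TM6, 113 ± 7.34 CPM in rho0, 25.6 ± 1.37 CPM in clone PKO-1 and 42.2 ± 6.27 CPM in clone PKO-6 (SD, n = 3 libraries). Cre removes only a part of *Pnpt1*, so its remaining RNA was still counted in the knockout clones. Of 10 fibroblast markers, none was at 0 in TM6 and PKO-1, and 1 was at 0 in rho0 and in PKO-6, and their summed level was 5472 to 5740 CPM in TM6, 7070 to 7148 in rho0, 8346 to 8931 in PKO-1 and 6244 to 6343 in PKO-6. *Fn1*, the fibronectin gene, held a large part of these sums, at 2236 to 2407 CPM in TM6 and 4380 to 5644 CPM in the derived lines. Of the 9 markers tested against TM6, 1 was called higher and 7 lower in rho0, 5 higher and 2 lower in PKO-1, and 2 higher and 4 lower in PKO-6. Of all tested genes, 20.7% were called higher and 21.4% lower in rho0, 16.4% and 17.9% in PKO-1, and 21.9% and 19.4% in PKO-6.

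*Gm13154*, listed by RefSeq as *Zfp985*, lies on the plus strand of chromosome 4 (chr4:147553277-147585201, GRCm38) and has a single transcript of 6 exons and 2827 bases in the deposited files. It belongs to the zinc finger genes. Many genes of this kind sit in tandem clusters of recent copies, and those with a KRAB domain encode repressors that bind DNA through arrays of zinc fingers and recruit TRIM28, which in turn brings the histone methyltransferase SETDB1 to the bound site. They are best known for keeping transposable elements silent, and the clusters themselves are often packed in the same repressed chromatin. Between *Tnfrsf8* and *Miip* on chromosome 4 the files placed 21 genes over 2384 kb, *Gm13154* included, and 13 of the other 20 carried a zinc finger name in RefSeq.

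Near-identical copies can take reads from each other, so the transcript was compared with its relatives (GENCODE transcripts of GRCm38). Of the 2663 windows of 100 bases, shorter than a read, in the *Gm13154* transcript, 51 (1.91%) occurred exactly in a transcript of another gene, most of them in *Gm13212*. Its closest relatives matched it at 86.9% (*Gm13251*), 87.7% (*Gm13051*), 89.4% (*Gm13157*), 88.0% (*Gm13139*) and 87.2% (*Zfp534*) of the aligned bases, over 1676 to 1904 bases. Most windows of *Gm13154* were thus its own. *Gm13051* shared 77.9% and *Zfp534* 40.8% of their windows with other genes, and *Gm13152* shared 0. The counts of *Gm13051* and *Zfp534* therefore depend on how shared reads were divided. Of the windows of *Zfp534*, 34.3% occurred in *Gm13051*, so these 2 genes can take reads from each other and their levels are not independent.

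Promoter windows run from 250 bases before to 50 bases after the annotated start. They are shown for *Gm13154* and for the 2 tested cluster genes that rose in the same order of lines without overlap. Each CpG, the dinucleotide at which DNA is methylated, is in capitals (RefSeq, GRCm38).

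*Gm13154* (Zfp985, chr4:147553027-147553326, plus strand): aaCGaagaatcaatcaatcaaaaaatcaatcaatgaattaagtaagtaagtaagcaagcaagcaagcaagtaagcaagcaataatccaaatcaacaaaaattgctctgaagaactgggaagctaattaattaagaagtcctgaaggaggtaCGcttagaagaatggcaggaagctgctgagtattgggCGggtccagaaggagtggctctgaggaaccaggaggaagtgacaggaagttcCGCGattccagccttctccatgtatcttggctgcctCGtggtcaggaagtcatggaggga

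*Zfp534* (chr4:147702582-147702881, minus strand): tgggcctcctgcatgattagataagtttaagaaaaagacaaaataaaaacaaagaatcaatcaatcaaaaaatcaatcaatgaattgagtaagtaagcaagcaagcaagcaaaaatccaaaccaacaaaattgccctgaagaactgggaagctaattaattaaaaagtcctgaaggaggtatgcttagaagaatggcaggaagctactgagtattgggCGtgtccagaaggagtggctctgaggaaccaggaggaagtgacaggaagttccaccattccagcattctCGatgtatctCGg

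*Gm13051* (Zfp987, chr4:146097062-146097361, plus strand): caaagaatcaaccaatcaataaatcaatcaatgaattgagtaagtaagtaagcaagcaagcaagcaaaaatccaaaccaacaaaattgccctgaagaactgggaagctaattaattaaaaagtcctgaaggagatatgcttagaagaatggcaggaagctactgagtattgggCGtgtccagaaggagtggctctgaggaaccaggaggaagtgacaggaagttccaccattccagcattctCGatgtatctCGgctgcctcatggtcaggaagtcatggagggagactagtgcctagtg

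The 3 windows resembled one another, and windows of other cluster genes resembled them too. Where they aligned, the window of *Gm13051* matched that of *Gm13154* at 89.9% of 298 columns, and the window of *Zfp534* at 89.3% of 270 columns. A window of *Gm13152* matched at 87.2%, that of *Gm13242* at 86.5%, that of *2610305D13Rik* at 85.5%, that of *Rex2* at 85.5% and one of *Zfp600* at 85.1%, so the likeness is not particular to the genes shown. Of these, *Gm13242*, *2610305D13Rik* and *Zfp600* had too few counts to be tested. *2610305D13Rik* did not follow the order, at 0.194 to 0.229 CPM in TM6, 0 to 0.0448 in rho0 and 0.0689 to 0.160 in PKO-1. Whether *Gm13242* and *Zfp600* follow it cannot be said. The line means of *Gm13152* had the same order, with overlap between the knockout clones, and those of *Rex2* did not. The *Gm13154* window held 6 CpG, and those of *Zfp534* and *Gm13051* held 3 each. Across 32851 promoter windows of the same length the median was 7 CpG, and 56.4% of the windows held 6 or more. DNA methylation was not measured, and these letters describe the windows only.

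*Gm13154* was nearly silent in TM6, low in rho0, higher in PKO-1 and highest in PKO-6. The TM6 libraries held 4.11, 2.02 and 4.04 expected counts. The rho0 libraries held 26.7, 23.9 and 25.5 expected counts. The PKO-1 libraries held 104, 84.4 and 105 expected counts, and the PKO-6 libraries 972, 759 and 973. No library of one line overlapped those of another line. The rule fixed the gap between TM6 and each derived line, so nothing is read from that gap. A gap from TM6 was also common. The CPM of 73.8% of tested genes did not overlap between TM6 and rho0, of 71.9% between TM6 and PKO-1 and of 72.4% between TM6 and PKO-6. The mean CPM was 0.0655 ± 0.023 in TM6, 0.575 ± 0.039 in rho0 and 2.22 ± 0.363 in PKO-1, and it reached 18.3 ± 2.24 in PKO-6 (SD, n = 3). Per length, as TPM (transcripts per 1000000 transcripts), the means were 0.0367 ± 0.0153, 0.303 ± 0.0306, 1.18 ± 0.207 and 9.34 ± 1.62 in the same order (SD, n = 3). As a description, the summed counts of a line relative to the 10 counts of TM6, scaled by library totals, gave a ratio of 8.89 for rho0 (95% counting interval 4.58 to 19.3), 34.4 for PKO-1 (18.4 to 72.4) and 283 for PKO-6 (154 to 592). The intervals are exact and cover counting error only. In bulk RNA, more cells with the transcript and more transcript per cell cannot be told apart.

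**Figure D1:**
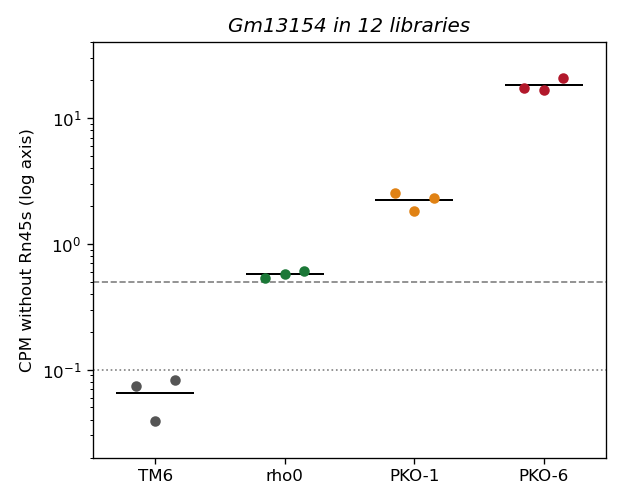
*Gm13154* in each of the 12 libraries, in CPM on a log axis, with the mean of each line as a bar and the limits of 0.1 CPM (dotted) and 0.5 CPM (dashed). The libraries form 4 separate steps, from 0.0394 to 0.0825 CPM in TM6 up to 16.6 to 20.8 CPM in PKO-6. The gap between TM6 and the derived lines was fixed by the rule.

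The derived lines differed from each other in *Gm13154*, which the rule did not use beyond their common minimum. Between the knockout clones, PKO-1 was lower than PKO-6 by 7.86-fold (log2 fold change -2.97, SE 0.129, adjusted p = 2.77e-10, edgeR's quasi-likelihood test). In that comparison 29.1% of the 14026 genes tested were called, that is, they had an adjusted p under 0.01 with a log2 fold change beyond 0.5 in either direction, and 17.6% were called lower. PKO-1 was above rho0 by 3.92-fold (log2 fold change 1.97, SE 0.166, adjusted p = 2.21e-07), where 32.7% of genes were called and 15.1% were called higher. PKO-6 was above rho0 by 30.8-fold (log2 fold change 4.94, SE 0.153, adjusted p = 2.46e-11), where 21.5% were called, 13.3% higher and 8.16% lower. Only 96 genes had a larger log2 fold change than *Gm13154* in PKO-6 against rho0, compared with 329 in PKO-1 against rho0 and 473 in the direction of PKO-6 between the clones. The lines also share libraries across these 3 comparisons, so the values are not independent of each other. Non-overlap alone was common, since the CPM of 66.1% of tested genes did not overlap between PKO-1 and PKO-6, of 70.5% between PKO-1 and rho0 and of 57.6% between PKO-6 and rho0. A rise from rho0 to PKO-1 to PKO-6 with no overlap at either step was found for 708 tested genes (5.05%). With the step from TM6 added, which the rule fixed for *Gm13154*, 189 tested genes (1.35%) had the full order, and nothing is read from that share for *Gm13154*.

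The nearest tested gene on each side of *Gm13154* was also a zinc finger gene. Both were higher in all 3 derived lines than in TM6. Between *Gm13154* and *Zfp534* lay *2610305D13Rik* (RefSeq *Zfp979*), which had too few counts to be tested and did not show this rise. *2610305D13Rik* held 9.96 to 11.39 expected counts in TM6, 0 to 2.24 in rho0, 2.82 to 7.41 in PKO-1 and 9.41 to 14.45 in PKO-6. The background of called genes against TM6 was 42.1% in rho0 (20.7% higher), 34.3% in PKO-1 (16.4% higher) and 41.3% in PKO-6 (21.9% higher). *Gm13152* (RefSeq *Zfp982*), 39.9 kb away on the side of lower coordinates, was the tested neighbour that was already expressed in TM6. Its CPM was 0.961, 1.23 and 1.00 in TM6 and 2.32, 3.30 and 2.83 in rho0. It was 6.66, 5.74 and 5.86 in PKO-1 and 8.01, 6.00 and 9.37 in PKO-6, so that the knockout clones overlapped each other and nothing else. Its log2 fold change against TM6 was 1.35 (SE 0.182, adjusted p = 1.54e-05) in rho0, 2.51 (SE 0.176, adjusted p = 2.78e-08) in PKO-1 and 2.80 (SE 0.174, adjusted p = 5.37e-09) in PKO-6. Unlike *Gm13154*, *Gm13152* was not called between the clones (log2 fold change -0.28, SE 0.150, adjusted p = 0.119).

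*Zfp534*, 89.0 kb away on the other side, followed *Gm13154* closely. Its CPM was 0.0662, 0.127 and 0.118 in TM6 and 0.157, 0.578 and 0.336 in rho0. It was 1.60, 1.37 and 1.93 in PKO-1 and 11.8, 10.97 and 14.5 in PKO-6, again with no overlap between lines. The log2 fold change against TM6 was 1.69 (SE 0.447, adjusted p = 0.00400) in rho0, 3.95 (SE 0.345, adjusted p = 2.69e-07) in PKO-1 and 6.80 (SE 0.299, adjusted p = 1.48e-10) in PKO-6. The call in rho0 was lost without TM6 replicate 1 (log2 fold change 1.44, adjusted p = 0.0236), without rho0 replicate 2 (1.16, adjusted p = 0.0293) or without rho0 replicate 3 (1.70, adjusted p = 0.0101). Among the derived lines the level of *Zfp534* in PKO-1 was below that of PKO-6 (log2 fold change -2.85, SE 0.208, adjusted p = 5.13e-08) and higher in PKO-6 than in rho0 (5.12, SE 0.256, adjusted p = 2.33e-09). Because 40.8% of its windows occur in other genes, its counts rest more on the authors' assignment of shared reads than those of *Gm13154* do.

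**Figure D2:**
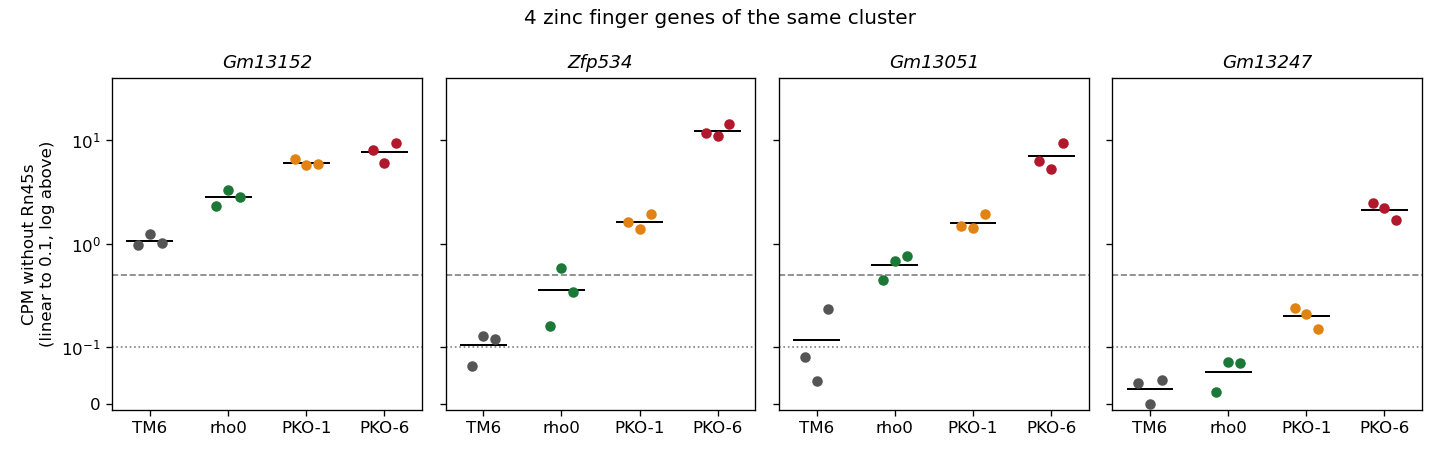
CPM of 4 zinc finger genes of the cluster in the 12 libraries (linear up to 0.1 and logarithmic above), with line means as bars and the limits of 0.1 and 0.5 CPM dotted and dashed. *Zfp534* and *Gm13051* rise in the same order of lines as *Gm13154*, *Gm13152* reaches similar levels in PKO-1 and PKO-6, and *Gm13247* is above 0.25 CPM in PKO-6 alone.

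The rest of the cluster was described after its values had been seen, and no test was run on it as a group. Of its 20 other genes, 14 were tested. Besides *Zfp534*, 1 of them rose in the order of *Gm13154* without overlap, namely *Gm13051* (RefSeq *Zfp987*), with 0.0392 to 0.230 CPM in TM6, 0.443 to 0.753 in rho0, 1.40 to 1.92 in PKO-1 and 5.32 to 9.36 in PKO-6. Since 77.9% of the windows of *Gm13051* are shared, its level is uncertain and not independent of that of *Zfp534*. *Gm13247* (RefSeq *Zfp981*) shared 12.6% of its windows and held 0 to 2 counts in TM6, 1 to 3 in rho0, 6.79 to 9.66 in PKO-1 and 78.7 to 137 in PKO-6. *Gm13247* passed the count filter only through its counts in PKO-6, so no test result or fold change is given for it. All PKO-6 libraries lay above all others for 6 of the 14 genes, *Gm13247* among them, beside 14.1% of all tested genes. All TM6 libraries lay below all others for 4 of the 14, beside 21% of all tested genes. Many of the 14 also share windows with other genes, such as *Rex2* (76.1%), *Gm13139* (73.8%), *Gm13238* (67.8%), *Smarca5-ps* (39.6%), *Gm13157* (31.2%) and *Gm13251* (28.6%). *Gm13152* and *Zfp933* shared 0. The genes of the cluster are therefore not measured independently, which limits these counts and the medians below. Leaving out *Gm13247*, which had too few counts in TM6 for a fold change, the median log2 fold change against TM6 of the other 13 genes was 0.43 in rho0, 0.34 for PKO-1 and 1.25 for PKO-6. The 99 tested genes within 5 Mb outside the cluster had medians of 0.11, -0.13 and 0.02, and all tested genes had medians of 0.02, 0.00086 and 0.01. The difference was not spread evenly, and *Znf41-ps*, *Gm13238*, *Rex2*, *Rps19-ps3* and *Zfp933* were not called in any line against TM6.

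**Figure D3:**
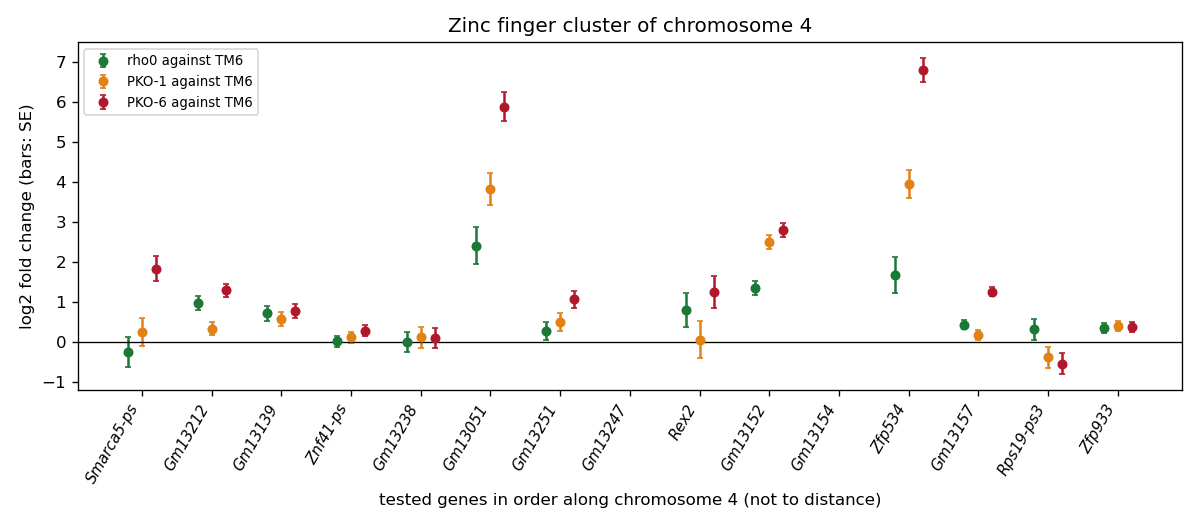
Log2 fold change against TM6 (points, with SE as bars) of tested genes of the cluster, in their order along chromosome 4. Among the 13 genes drawn, *Zfp534* and *Gm13051* stand highest, and no points are drawn for *Gm13154*, which was chosen by this contrast, or *Gm13247*, which held 4 counts in TM6.

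The genes whose pattern was most like that of *Gm13154* were looked for by Pearson's correlation of log2 CPM over the 12 libraries, a measure chosen after the values had been seen. The libraries come from 4 lines, and the correlation therefore mostly follows the order of line means. The closest were *Hao1* (r = 0.996), a liver glycolate oxidase gene, *Sepp1* (r = 0.992), which encodes selenoprotein P, and *Tbc1d2* (r = 0.992). *Gm13051* was at rank 17 (r = 0.984) and *Zfp534* at rank 35 (r = 0.977) of all tested genes. The other tested genes of the cluster ranked from 158 (*Gm13247*, r = 0.944) to 11488 (*Rps19-ps3*, r = -0.602). The correlation includes the TM6 libraries, whose contrast with the derived lines chose *Gm13154*. *Gm13154* spanned 7.92 on the log2 CPM scale, compared with 4.54 for *Hao1*, 6.91 for *Zfp534* and 6.77 for *Gm13051*.

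The genes of the silencing machinery were examined through a list of 58 DNA methyltransferases, histone modifying enzymes, Polycomb subunits and readers, all of which were tested. Against TM6, 10 were called higher and 8 lower in rho0, 9 higher and 7 lower in PKO-1, and 6 higher and 5 lower in PKO-6. These shares were below the background of called genes given above. The list's median log2 fold change was 0.10, 0.08 and 0.01, where the medians over all genes were 0.02, 0.00086 and 0.01. Named for their role with KRAB zinc finger proteins, *Trim28* was at 265 to 291 CPM in TM6 and 208 to 301 CPM across the derived lines, and *Setdb1* at 81.0 to 89.9 and 72.7 to 95.4 CPM. Neither gene was called in any derived line, with log2 fold changes of -0.26 (SE 0.102, adjusted p = 0.0379) to 0.05 for *Trim28* and -0.16 (SE 0.0539, adjusted p = 0.0178) to 0.07 for *Setdb1*.

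Among the called genes of the list, *Suv39h1*, which encodes a histone methyltransferase of heterochromatin, fell in all derived lines, by 1.23 in rho0 (SE 0.0606, adjusted p = 5.94e-10), 1.06 in PKO-1 (SE 0.0603, adjusted p = 3.33e-09) and 1.33 in PKO-6 (SE 0.0606, adjusted p = 2.20e-10) on the log2 scale. Its CPM was 103 to 111 in TM6 and 41.5 to 52.4 in the other 9 libraries. *Rbbp7*, a histone binding subunit of several chromatin complexes, also fell in all 3 lines, with log2 fold changes of -0.98, -0.76 and -1.20. *Ring1*, a ubiquitin ligase of Polycomb, rose in rho0 (log2 fold change 1.36, SE 0.0885) and PKO-6 (1.01, SE 0.0883) and was at 10.3 to 11.4 CPM in TM6 and 10.7 to 12.2 CPM in PKO-1. In PKO-1, *Kdm6a*, a histone demethylase gene, fell by 1.29 (SE 0.0482) and *Ezh2*, the Polycomb methyltransferase, rose by 0.84 (SE 0.0526) on the log2 scale. *Dnmt3b*, a DNA methyltransferase gene, fell by 0.95 in PKO-1 (SE 0.197) and rose in rho0 (log2 fold change 0.65, SE 0.180, adjusted p = 0.00506).

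*Dnmt3l*, the cofactor of the de novo DNA methyltransferases that is best known from germ cells, was among the genes silent in TM6. It held 1, 0 and 0 counts in TM6, 18, 18 and 19 in rho0, 1, 4 and 0 in PKO-1 and 42, 26 and 28 in PKO-6. Its libraries in rho0 (0.360 to 0.455 CPM) stayed under the minimum of 0.5 CPM, those in PKO-6 (0.570 to 0.751 CPM) passed it, and those in PKO-1 were near 0. The ratio to the single count of TM6 was 64.3 in rho0 (95% counting interval 11.1 to 2586) and 101 in PKO-6 (17.6 to 4015). PKO-1 was below PKO-6 (adjusted p = 2.07e-05) and below rho0 (adjusted p = 1.73e-04), whereas *Gm13154* was higher in PKO-1 than in rho0.

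**Figure D4:**
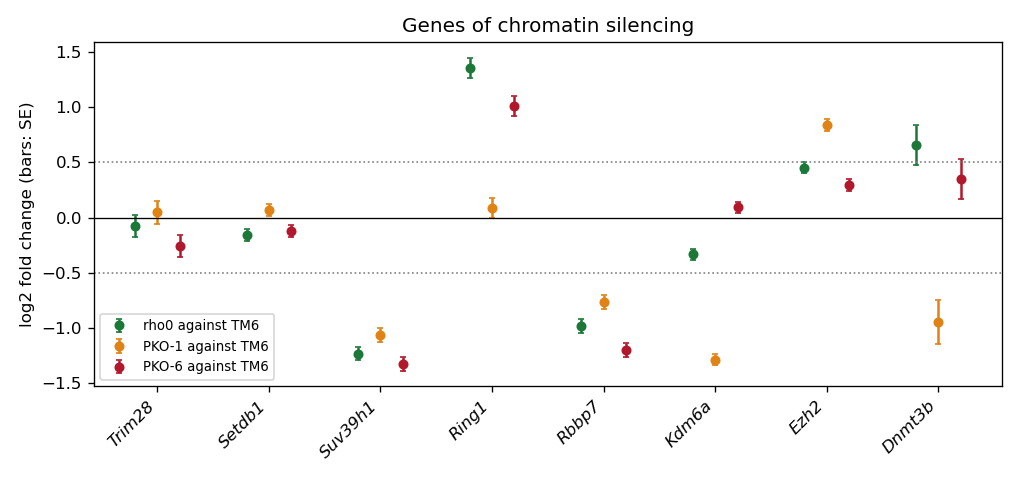
Log2 fold change against TM6 (points, with SE as bars) of *Trim28*, *Setdb1* and silencing genes with large called changes, with dotted lines at 0.5 and -0.5. *Trim28* and *Setdb1* stay between the dotted lines, *Suv39h1* and *Rbbp7* lie below them in all 3 lines, and *Dnmt3l* is not drawn because TM6 held 1 count of it.

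A list of 32 germline genes, which are commonly silenced by DNA methylation in somatic cells, gave 6 tested genes, of which 1 was called higher in rho0, 1 in PKO-1 and 2 in PKO-6 and 0 were called lower, beside 20.7%, 16.4% and 21.9% of all tested genes called higher. Their summed level was 3.62 to 4.13 CPM in TM6, 4.84 to 5.44 in rho0, 3.70 to 4.47 in PKO-1 and 5.97 to 6.76 in PKO-6. The summed markers of other cell types stayed low beside the sum of the fibroblast markers, of which *Fn1* held a large part. Summed neuron markers reached at most 113 CPM (PKO-1), bone and cartilage markers 104 CPM (TM6), glia markers 28.6 CPM (PKO-6), epithelium markers 17.3 CPM (PKO-1), blood markers 13.6 CPM (PKO-6), adipocyte markers 13.7 CPM (rho0), endothelium markers 8.21 CPM (PKO-6), pluripotency markers 2.67 CPM (TM6) and muscle markers 1.77 CPM (PKO-1). The 9 epithelium markers summed to 5.45 to 5.63 CPM in TM6, 8.82 to 10.1 in rho0, 16.8 to 17.3 in PKO-1 and 12.0 to 12.7 in PKO-6, with 1 to 3 of them at 0 in a line. Different genes made up these sums. *Krt18*, a keratin gene, was at 16.6 CPM or more in the PKO-1 libraries and at 0.107 to 0.215 CPM in PKO-6. *Esrp1*, an epithelial splicing factor gene, held 438 to 569 counts in PKO-6 and at most 5 in any other library. *Epcam*, an epithelial adhesion gene, was at 1.68 to 2.21 CPM in PKO-6 and at most 0.240 CPM elsewhere. Both *Esrp1* and *Epcam* were thus highest in the line where *Gm13154* was highest. All PKO-6 libraries lay above all others for 14.1% of all tested genes. *Krt18* was lowest in PKO-6. *Krt8*, another keratin gene, was at 0.241 to 0.299 CPM in PKO-6 and 0.123 to 0.370 CPM in TM6. Of the 4 epithelium markers tested in PKO-6 against TM6, 2 were called higher and 1 lower, beside 21.9% and 19.4% of all tested genes. *Esrp1* and *Epcam* entered the test only through their counts in PKO-6, so nothing is read from the calls higher there. The 8 endothelium markers summed to 1.19 to 1.94 CPM in TM6, 0.599 to 1.17 in rho0, 3.12 to 3.27 in PKO-1 and 6.09 to 8.21 in PKO-6, with 1 to 3 of them at 0. Whether cells of other types were present, and whether they had a part in the level of *Gm13154*, was not tested.

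To place *Gm13154* among silent genes, all 9942 genes at 0.1 CPM or less in the TM6 libraries were sorted by the derived lines in which all 3 libraries reached 0.5 CPM. Such a line was found for 106 of them, and 59 were on in PKO-6 alone. Another 11 were on in rho0 alone, 6 in PKO-1 alone, 21 in rho0 and PKO-6, 4 in PKO-1 and PKO-6 and 1 in rho0 and PKO-1. Only 4 were on in all 3 lines, and those are the 4 genes named at the outset.

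The genes just outside the limits had other orders of the derived lines, apart from *Cxxc4*. *Gm13154* itself was inside by little, at 0.0825 CPM in its highest TM6 library and 0.534 CPM in its lowest derived library. *Ccdc7b*, a coiled-coil gene on chromosome 8, was at 0 counts in the TM6 libraries and missed the minimum in 1 library, at 0.498 CPM in PKO-1, where the other libraries had 0.546 and 0.659 CPM. It reached 3.70 to 4.39 CPM in rho0 and 2.69 to 3.51 CPM in PKO-6. *Cxxc4*, a gene on chromosome 3 whose product inhibits Wnt signalling, was at 0.0181 to 0.0817 CPM in TM6, 0.480 to 0.850 in rho0, 0.930 to 1.11 in PKO-1 and 2.50 to 2.91 in PKO-6, the order seen for *Gm13154*. *Sspo*, on chromosome 6, the gene of the brain glycoprotein SCO-spondin, had 1 count in each TM6 library, 2.96 to 4.22 CPM in rho0, 0.415 to 0.822 in PKO-1 and 5.19 to 10.5 in PKO-6. Whether a gene passed therefore hung on single libraries of a few counts, and *Gm13154* itself did not pass when *Rn45s* was left in the library total or when totals were scaled by TMM.

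**Figure D5:**
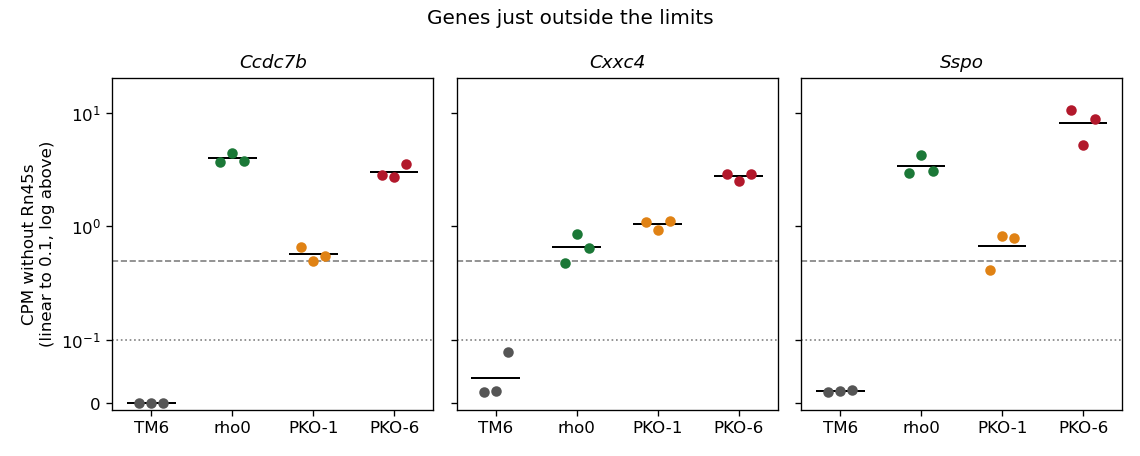
CPM of the 3 genes nearest to the limits in the 12 libraries (linear up to 0.1 and logarithmic above), with line means as bars and the limits of 0.1 and 0.5 CPM dotted and dashed. Each gene has 1 library just under the dashed line, in PKO-1 for *Ccdc7b* and *Sspo* and in rho0 for *Cxxc4*.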

How the data were processed

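RNA-Seq of 12 libraries, 3 each of TM6, rho0, PKO-1 and PKO-6 MEFs, was used. The authors made strand-specific libraries depleted of ribosomal RNA, in technical duplicates that were merged, and estimated expression with RSEM 1.2.25 and Bowtie2 on RefSeq transcripts of mm10 (GRCm38). The deposited values used were expected counts (estimated counts, not normalized, which need not be whole) per gene, and TPM per transcript, which the authors' RSEM runs scaled by length and depth. The files' isoform share, in percent per the deposited transcript tables, was not needed. Of the count values, 12.5% had decimals, and counts were rounded to whole numbers for tests only.

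Tests were run with edgeR 4.0.16 in R 4.3.3. Genes with too few reads were removed by filterByExpr (minimum count 10), leaving 14026. Libraries were scaled by TMM, and the 4 lines were compared in a single fit by the quasi-likelihood test. P-values were adjusted by Benjamini-Hochberg across these 14026 genes. A gene was called at an adjusted p under 0.01 with a log2 fold change beyond 0.5. SE is the log2 fold change divided by the square root of F. Alternatives were DESeq2 1.42.0, its size factors, no filter, a replicate block, only the compared lines fitted, removal of *Rn45s*, a log2 limit of 1, other CPM limits and the omission of each library.

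The rule, the lists (silencing machinery, germline and cell type markers) and the tests were chosen with earlier results of these data known. Named genes were the gene of the rule, its nearest tested neighbours, the 4 largest called changes of the silencing list in each line and the 3 nearest genes outside the limits. Genes of the cluster, the genes of like pattern, *Trim28* and *Setdb1* were named after values had been seen. Items withheld for evaluation are not reported here. RefSeq symbols were matched by accession for 20 of 21 cluster genes.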

Additional observations from a re-analysis of the deposited data

Results flagged for a closer look

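The change of *Gm13154* from TM6 differed between the derived lines, as tested by the direct comparison of the lines in edgeR's fit over all genes. The difference on the log2 scale was -2.97 for PKO-1 minus PKO-6, 1.97 for PKO-1 minus rho0 and 4.94 for PKO-6 minus rho0, and each was in the same direction in all 3 libraries against all 3. Each line is a single clone, so the treatment of a line and the choice of its clone cannot be told apart.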

How the results depend on the processing

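The comparisons of *Gm13154* among the derived lines kept direction and call in all alternatives run. Across the omission of each library in turn the log2 fold change was -3.08 to -2.86 for PKO-1 against PKO-6, 1.86 to 2.09 for PKO-1 against rho0 and 4.86 to 4.98 for PKO-6 against rho0, and the highest adjusted p over all alternatives was 1.24e-07, 3.61e-05 and 4.44e-07. With a replicate block each comparison again called 1 of 1 gene, and the block changed no call of *Gm13154*. The numbers did not pair the libraries, since the correlations of same-numbered deviations were -0.39 to 0.25 over 18 pairs and 4 of 12 libraries correlated best with their own number.

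The number of genes that met the rule was 0 with *Rn45s* in the total, 0 with TMM sizes, 0 at a TM6 limit of 0.05 CPM, 8 at 0.2 CPM, 17 at a derived minimum of 0.25 CPM and 0 at 1 CPM. It was 1 to 2 when a library was left out. These numbers leave out the genes of chromosomes X and Y and the gene families and genes that the rule excludes by name. It was 2 without TM6 replicate 3, and the second gene was *Cxxc4* without rho0 replicate 1, *Sspo* without PKO-1 replicate 1 and *Ccdc7b* without PKO-1 replicate 2. The combinations of lines were counted without these exclusions. At 1 CPM, 57 genes were on in any derived line, 34 in PKO-6 alone, 10 in rho0 alone and 2 in PKO-1 alone. Another 8 were on in rho0 and PKO-6, 1 in both PKO clones, 0 in rho0 and PKO-1 and 2 in all derived lines. Above a log2 fold change of 1, the silencing genes called were 3 in rho0, 2 in PKO-1 and 4 in PKO-6, and with each library left out they were 16 to 18, 13 to 17 and 11 to 13 at the limit of 0.5. Flanking genes called in rho0 were 1 to 2 when a library was left out and 1 when only the compared lines were fitted, where *Zfp534* fell under the count filter, and 2 in PKO-1 and PKO-6 in all alternatives. Depth limits the values in TM6, where *Gm13154* held 2.02 to 4.11 counts per library.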
